A study of Mus musculus with 6 samples.

Results

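The mitochondrial ribosomal proteins, written Mrpl for the large and Mrps for the small subunit, are nuclear genes, and their transcripts were measured in MC3T3-E1, a pre-osteoblast line from mouse calvaria, with 6 Affymetrix arrays. The members were the genes whose probe sets carried 1 symbol beginning with Mrpl or Mrps and a number, which gave 71 genes of the 22180 on the arrays, 43 of the large and 28 of the small subunit. A further 7 such genes (Mrpl30, Mrpl33, Mrpl41, Mrpl43, Mrpl44, Mrpl53 and Mrps6) had only probe sets annotated with several symbols and were not analysed here. The NU7441 group had 3 samples, kept with 1 µM NU7441, which inhibits the catalytic subunit of the DNA-dependent protein kinase. The DMSO group had 3 samples, kept with the vehicle alone. All 6 were total RNA of whole cells, for which the labels name no genetic change, taken at day 14 of differentiation, which was induced by adding ascorbic acid (50 µg/ml) together with β-glycerophosphate (10 mM). The labels give replicate numbers 1 to 3 in both groups without stating that these were separate cultures. Each p-value therefore reflects the variation among these 6 samples alone, part or all of which may be technical.

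Mitochondria translate the few proteins encoded in their own DNA, all of them parts of the respiratory chain and ATP synthase, on ribosomes of their own. The ribosomal RNAs of these mitoribosomes come from mitochondrial DNA, while every protein is encoded in the nucleus, made in the cytosol and imported. Part of the proteins have counterparts in bacterial ribosomes, and the others were added in the line of mitochondria. Osteoblasts that lay down matrix use both glycolysis and respiration, and assembly of the respiratory chain needs the products of mitoribosomes.

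The nuclear genes of mitochondrial proteins are known for promoters with sites for NRF1, for ETS factors such as GABP, and for YY1. RefSeq promoters of build GRCm38.p6, from 250 bases before to 50 bases after the start, were given for 62 of the 71 members. They were searched on both strands for GCATGCG (NRF1), CCGGAAG (ETS), ATGGCGG (YY1) and, as a common promoter element, GGGCGG (GC box), none of which contains another. The ETS letters stood in 37.1% of member promoters, 23 of 62, against 12.9% of the promoters of 17491 protein-coding genes. The YY1 letters stood in 19.4% against 6.05%, and the NRF1 letters in 11.3% against 4.95%, while the GC box stood in 51.6% against 49.2%. The 5 promoters below, from 150 bases before to 50 bases after the start, belong to the 3 members with a promoter entry and the smallest p among those lower with NU7441, to the 1 member with all 3 factor motifs, and to the member higher with NU7441 with the smallest p. Capitals mark the NRF1, ETS and YY1 letters found. Mrps22 lies at chr9:98601630-98601829, minus strand, Mrpl37 at chr4:107066817-107067016, minus strand, Mrpl22 at chr11:58171514-58171713, plus strand, Mrps10 at chr17:47369047-47369246, plus strand, and Mrps25 at chr6:92183974-92184173, minus strand.
Mrps22: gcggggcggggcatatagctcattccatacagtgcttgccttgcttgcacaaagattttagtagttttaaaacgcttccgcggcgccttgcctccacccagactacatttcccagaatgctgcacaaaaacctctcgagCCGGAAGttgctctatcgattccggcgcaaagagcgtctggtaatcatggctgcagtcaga
Mrpl37: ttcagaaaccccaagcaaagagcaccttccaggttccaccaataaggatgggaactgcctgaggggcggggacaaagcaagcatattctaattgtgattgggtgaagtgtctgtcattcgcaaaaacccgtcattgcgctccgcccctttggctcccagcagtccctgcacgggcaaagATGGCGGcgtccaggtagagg
Mrpl22: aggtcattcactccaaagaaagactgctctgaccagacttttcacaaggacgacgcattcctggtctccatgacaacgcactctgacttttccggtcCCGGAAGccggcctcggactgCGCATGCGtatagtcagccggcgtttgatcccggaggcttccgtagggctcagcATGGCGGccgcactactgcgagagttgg
Mrps10: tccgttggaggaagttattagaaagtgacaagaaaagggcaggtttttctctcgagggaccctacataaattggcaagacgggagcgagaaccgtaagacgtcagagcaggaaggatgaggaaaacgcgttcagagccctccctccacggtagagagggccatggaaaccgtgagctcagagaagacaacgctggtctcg
Mrps25: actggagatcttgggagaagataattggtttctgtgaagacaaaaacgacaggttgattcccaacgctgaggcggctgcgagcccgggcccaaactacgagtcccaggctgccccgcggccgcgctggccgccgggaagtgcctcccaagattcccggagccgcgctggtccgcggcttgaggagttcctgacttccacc

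In these windows Mrps22 held 1 ETS match, Mrpl37 held 1 YY1 match after the start, and Mrpl22 held an ETS match, NRF1 letters on both strands that overlap, and a YY1 match. Mrps10 and Mrps25 held none, which says only that these letters were not in the window. By subunit, the ETS letters stood in 12 of 37 promoters of the large and 11 of 25 of the small subunit, the YY1 letters in 6 of 37 and 6 of 25, and the NRF1 letters in 6 of 37 and 1 of 25. With at least 1 of the 3 factor motifs, 31 of 34 members were lower with NU7441, with a median log2 difference of -0.082. Without any, 21 of 28 were lower, with a median of -0.048, so members of both kinds leaned the same way. Without the array DMSO 2, 24 of 34 with a motif were lower, with a median of -0.048, and 19 of 28 without, with a median of -0.033. The difference between the kinds was not tested.

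The arrays had medians between 6.38 and 6.42 on the log2 scale, and any pair of arrays correlated at 0.989 to 0.993. The osteoblast markers Alpl, Sp7, Ibsp, Bglap, Col1a1 and Dmp1 were all measured. Ibsp, bone sialoprotein, was at 11.41 to 13.07 and Sp7, the transcription factor osterix, at 9.96 to 11.16 over the 6 arrays. Alpl was at 9.14 to 10.31, Col1a1 at 13.46 to 13.53 and Dmp1 at 8.62 to 11.08. Bglap was at 6.36 to 8.17, and its value in DMSO 1 lay below that array's median of 6.41. Markers of other cells were mixed. Ptprc of leukocytes was at 4.49 to 4.74 and Adipoq of adipocytes at 4.96 to 5.38, near the arrays' lower quartiles of 5.11 to 5.16. Sox9 and Col2a1 of chondrocytes were well above the array medians, at 10.35 to 10.55 and 8.05 to 8.70, as was Cd68 of macrophages at 7.45 to 8.13. Acan of chondrocytes at 5.60 to 5.93, and Adgre1 at 5.22 to 5.52 and Csf1r at 6.14 to 6.39 of macrophages, lay below each array's median. Plin1 of adipocytes, at 6.30 to 6.76, lay above each array's median except that of DMSO 2, and Pparg, at 5.25 to 5.55, below each. Of skeletal muscle, Acta1 at 7.24 to 7.58, Myod1 at 6.72 to 7.15 and Myog at 6.48 to 6.91 lay above each array's median. Of endothelial cells, Pecam1 at 6.00 to 6.25 and Kdr at 5.49 to 5.85 lay below each, and Cdh5 was at 6.07 to 6.47. Fabp4, a fatty acid binding protein of adipocytes, was at 4.57, 5.04 and 5.00 in NU7441 1 to 3, against 5.65, 6.23 and 5.72 in DMSO 1 to 3, a log2 difference of -0.99 (SE 0.19, limma adjusted p = 0.598). Its groups did not overlap, and it passed with the replicate numbers as blocks, a variance trend and a robust prior (limma adjusted p = 0.021). The other measured adipocyte markers went the other way, Plin1 by 0.13 (SE 0.11), Adipoq by 0.075 (SE 0.14) and Pparg by 0.016 (SE 0.090). Col2a1 differed by 0.28 (SE 0.14), beside -0.017 for Sox9 and -0.035 for Acan. Cd68 differed by -0.23 (SE 0.19), beside -0.040 for Adgre1, 0.0085 for Csf1r and 0.0056 for Ptprc. The 6 osteoblast markers were all higher with NU7441, by a median of 0.52, and none passed in the unpaired test. In the fit with blocks, trend and robust prior, Alpl (limma adjusted p = 0.0082), Sp7 (0.017) and Ibsp (0.0076) passed, each higher in all 3 same-numbered pairs. The markers' median deviation was -0.031, 0.10 and 0.67 in NU7441 1 to 3, against -0.50, -0.47 and 0.18 in DMSO 1 to 3. DMSO 2 was the highest array for stress genes and the lowest for division genes, in lists chosen after their values were seen. In DMSO 2 the median deviation of 14 amino acid response and ATF4 target genes from their means over the arrays was 0.61, and that of 15 genes of mitosis -0.49. The same medians were -0.47 to 0.34 and -0.23 to 0.31 in the other 5 arrays. With NU7441, 14 of 14 ATF4 target genes were lower, by a median of -0.30, and 15 of 15 mitosis genes higher, by a median of 0.11, and none passed. Without DMSO 2 the medians were -0.11 for the ATF4 targets, 12 of 14 lower, and -0.11 for mitosis, 15 of 15 lower. The medians of the subunits and of the other gene lists are therefore also given without DMSO 2, except for the genes sorted by structure. In whole-culture RNA, fewer cells of a type and less RNA per cell cannot be told apart.

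Setting NU7441 against DMSO addresses what the compound does to transcripts in differentiating osteoblasts. Effects through the kinase and through any other target of the compound cannot be told apart in these samples. Most mitoribosomal genes lay slightly lower with NU7441: 61 of 71 had a log2 difference below 0 and 10 above it, where 48.7% of all genes were below 0. The median difference over the members was -0.078, a signal difference of -5.23%, against 0.0036 over all genes. The members were brighter than most genes, at a mean log2 level of 8.68 against 7.09 over all genes. Among the 11090 genes in the upper 50% by level, the median was -0.019. The 68 members among these had a median of -0.082, with 59 lower. None of the 71 passed limma's test adjusted over all genes, and 0% of all genes did, the members' adjusted p running from 0.717 for Mrps10 to 0.996 for Mrpl10. At an unadjusted p under 0.05 there were 4 members, all lower, Mrps10, Mrpl38, Mrpl54 and Mrps22. That is 4 of 71 beside 3.30% of all genes lower and 3.49% higher at that p. The count was 0 without NU7441 1, NU7441 3 or DMSO 2, 2 without NU7441 2 or DMSO 3, and 7 without DMSO 1. Over all 22180 genes, the counts at that p in either direction were 1338, 1178 and 1174 without NU7441 1, 2 and 3. Without DMSO 1, 2 and 3 they were 1746, 1359 and 1687. For 71 of 71 members the 95% interval of the difference lay within a 2-fold change either way. Its lowest bound was -0.59, for Mrpl20, and its highest 0.44, for Mrps36.

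The values of the 3 NU7441 arrays lay below those of all 3 DMSO arrays in 15 members and above them in 0, beside 6.64% and 6.13% of all genes. These 15 were Mrpl3, Mrpl12, Mrpl13, Mrpl22, Mrpl37, Mrpl38, Mrpl39, Mrpl42, Mrpl51, Mrpl54, Mrpl55 and Mrpl58 of the large and Mrps10, Mrps22 and Mrps23 of the small subunit. Between same-numbered samples, 43 of 71 members were lower with NU7441 in pair 1, 62 in pair 2 and 51 in pair 3. Lower in all 3 pairs were 27 of 71, beside 16.6% of all genes. With the replicate numbers as blocks, a variance trend over intensity and a robust prior, limma called 100 genes, or 0.451%, and 0 members. In that fit 10 members had an unadjusted p under 0.05, all lower, beside 6.66% of all genes lower.

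**Figure D1:**
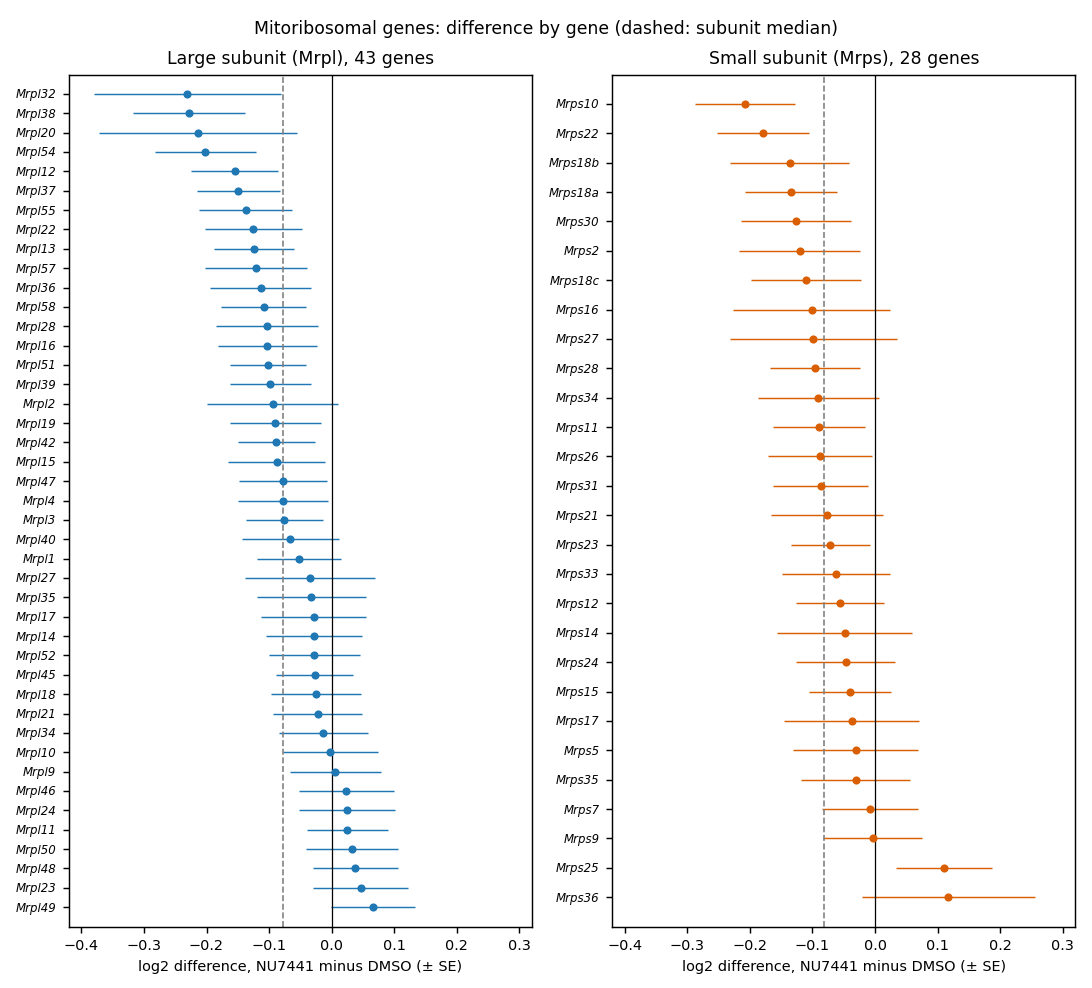
Log2 difference, NU7441 minus DMSO, of each mitoribosomal gene with its moderated standard error (x axis), the 43 genes of the large subunit on the left and the 28 of the small subunit on the right, in the order of their differences; the dashed lines are the subunit medians of -0.078 and -0.082. Of the genes, 35 of the large and 26 of the small subunit lie below 0, and none passed the test.

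The subunits were set against each other by the median difference of their genes. The large subunit had 35 of 43 genes lower and a median of -0.078, and the small subunit 26 of 28 lower and a median of -0.082. Large minus small was 0.0042. Taken in each array from the medians of the genes' deviations from their means, large minus small had an SD of 0.012 between replicates. That SD is of single arrays and not of the difference between the groups. The sign of the 0.0042 turned with DMSO 1 left out (-0.010) and with the genes sorted by published structures (-0.012), so the data gave no order of the subunits. Groups that did not overlap were found in 12 of 43 large (27.9%) and 3 of 28 small subunit genes (10.7%). All had NU7441 below, beside 6.64% of all genes. The median SD within groups was 0.075 for large and 0.10 for small subunit genes, and neither contrast between the subunits was tested.

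Set against each gene's mean over the 6 arrays, the large subunit's median was -0.040, -0.027 and -0.041 in NU7441 1 to 3, against -0.025, 0.11 and 0.017 in DMSO 1 to 3. The small subunit's median was -0.036, -0.021 and -0.034 in NU7441 1 to 3, against -0.0010, 0.11 and 0.010 in DMSO 1 to 3. Both subunits had a similar profile, with DMSO 2 high, the other DMSO arrays near 0 and the NU7441 arrays below it, except that the large subunit in DMSO 1 was close to NU7441 2. Only 8 of 71 members lay below their mean in DMSO 2, while 57, 44 and 52 did so in NU7441 1 to 3, against 42 in DMSO 1 and 27 in DMSO 3. Without DMSO 2, 51 of 71 members were lower, beside 48.8% of all genes, and the medians were -0.033 for the large and -0.038 for the small subunit. In that fit 0 members had an unadjusted p under 0.05, beside 1359 of 22180 genes in either direction. DMSO 2 is also the array in which the ATF4 target genes were high and the mitosis genes low. The part of either, or of the osteoblast markers and Fabp4, in the mitoribosomal difference was not tested.

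**Figure D2:**
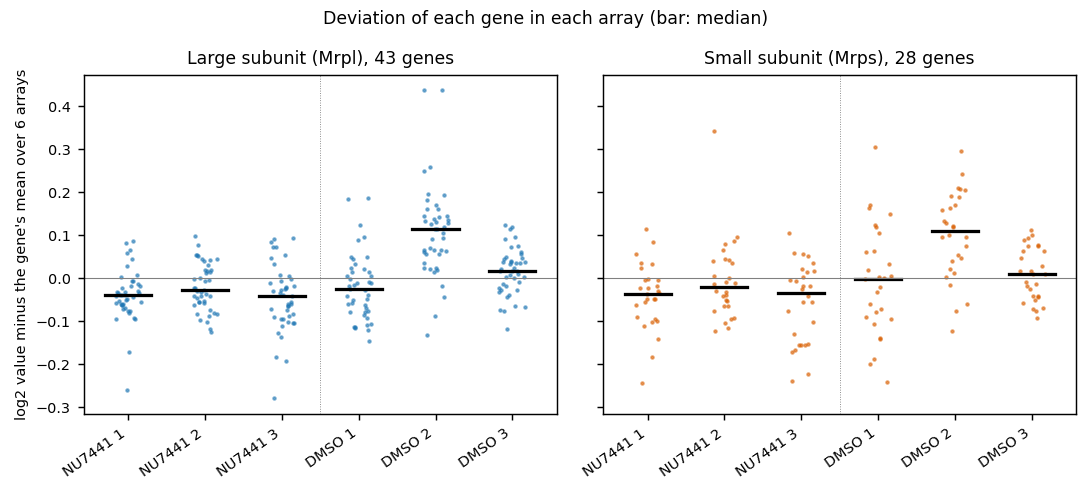
Log2 value minus the gene's own mean over the 6 arrays (y axis) for each mitoribosomal gene in each array (x axis), large subunit on the left and small on the right; points are genes and bars their medians. The medians of the NU7441 arrays lie between -0.041 and -0.021, and DMSO 2 stands at 0.11 in both subunits.

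Among single genes of the large subunit, the 3 with the smallest p belonged to proteins without bacterial counterparts. Next by p came Mrpl12, Mrpl13 and Mrpl55, whose proteins have such counterparts. Mrpl38, a protein at the central protuberance, was at 9.30, 9.37 and 9.39 in NU7441 1 to 3, against 9.43, 9.73 and 9.59 in DMSO 1 to 3, a log2 difference of -0.23 (SE 0.090, limma adjusted p = 0.719). Mrpl54 was at 9.63, 9.70 and 9.54 with NU7441, against 9.91, 9.87 and 9.71 with DMSO, a difference of -0.20 (SE 0.081, adjusted p = 0.724). Mrpl37 was at 9.04, 9.02 and 9.02 with NU7441, against 9.09, 9.22 and 9.22 with DMSO, a difference of -0.15 (SE 0.066, adjusted p = 0.753). In all 3 genes every NU7441 value lay below every DMSO value, but by little in Mrpl54, whose highest NU7441 array and lowest DMSO array were 9.70 and 9.71. The lowest difference of all belonged to Mrpl32, whose precursor is processed by a protease of the inner membrane. It was at 7.40, 7.68 and 7.55 with NU7441, against 7.55, 8.10 and 7.68 with DMSO, a difference of -0.23 (SE 0.15). Its groups overlapped, and DMSO 2 was the highest array, as it was in Mrpl20, at 7.58, 7.37 and 7.21 with NU7441 against 7.41, 7.93 and 7.45 with DMSO.

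**Figure D3:**
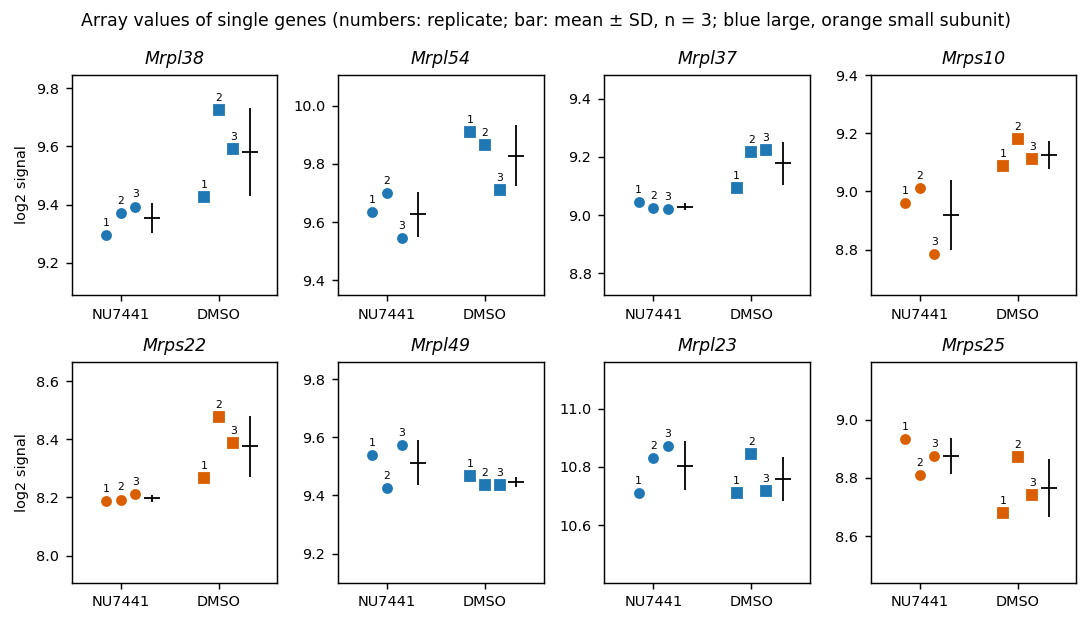
Log2 array values (y axis) of 8 mitoribosomal genes in the NU7441 and DMSO samples (x axis), each point an array with its replicate number and the bar the mean ± SD of 3; every panel spans the same range of log2 units. In Mrpl38, Mrpl54, Mrpl37, Mrps10 and Mrps22 the 3 NU7441 points lie below the 3 DMSO points, and in Mrpl49, Mrpl23 and Mrps25 the groups overlap.

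Genes of the functional regions of the large subunit lay mostly below 0, and none passed. In the stalk, which recruits the translation factors, Mrpl12 was at 8.50, 8.48 and 8.52 in NU7441 1 to 3, against 8.70, 8.71 and 8.56 in DMSO 1 to 3, a difference of -0.16 (SE 0.070, adjusted p = 0.755). Mrpl10, to which Mrpl12 binds, differed by -0.0025 (SE 0.076), and its groups overlapped. Around the peptidyl transferase centre, where peptide bonds are made, Mrpl2 differed by -0.094 (SE 0.10), Mrpl3 by -0.076 (SE 0.061), Mrpl4 by -0.078 (SE 0.072) and Mrpl16 by -0.10 (SE 0.079). Mrpl3 was at 9.27, 9.21 and 9.30 with NU7441, against 9.33, 9.32 and 9.35 with DMSO, without overlap. At the exit tunnel, where the new chain leaves towards the inner membrane, Mrpl22 differed by -0.13 (SE 0.077), while Mrpl23 at 0.047 (SE 0.076) and Mrpl24 at 0.025 (SE 0.076) were above 0. Mrpl22 was at 7.27, 7.23 and 7.25 with NU7441, against 7.33, 7.51 and 7.28 with DMSO, again without overlap and with DMSO 2 highest. Mrpl45, which holds the ribosome to the membrane, differed by -0.027 (SE 0.062), and Mrpl58, a peptidyl-tRNA hydrolase that frees stalled chains, by -0.11 (SE 0.068).

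Of the 8 large subunit genes above 0, Mrpl49 had the smallest p. It was at 9.54, 9.43 and 9.57 in NU7441 1 to 3, against 9.47, 9.44 and 9.44 in DMSO 1 to 3, a difference of 0.067 (SE 0.067, adjusted p = 0.875). NU7441 2 was lower than every DMSO array, so the groups overlapped. Mrpl23 was at 10.71, 10.83 and 10.87 with NU7441, against 10.71, 10.85 and 10.72 with DMSO. Mrpl48 was at 7.12, 7.22 and 7.25 with NU7441, against 7.18, 7.19 and 7.11 with DMSO, a difference of 0.037 (SE 0.068). Both overlapped, and Mrpl46 differed by 0.023 (SE 0.076). The probe sets of Mrpl27, Mrpl46 and Mrpl48 were the dimmest of the large subunit and those of Mrpl23, Mrpl10 and Mrpl52 the brightest, and Mrpl27 differed by -0.034 (SE 0.10) and Mrpl52 by -0.028 (SE 0.072). Background levels were not analysed, and dim probe sets can understate a difference.

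Among single genes of the small subunit, Mrps10, a protein of its head with a bacterial counterpart, was at 8.96, 9.01 and 8.78 in NU7441 1 to 3, against 9.09, 9.18 and 9.11 in DMSO 1 to 3. The difference was -0.21 (SE 0.080, limma adjusted p = 0.717), the smallest p of all members. Mrps22, without a bacterial counterpart and mutated in human respiratory chain deficiency, was at 8.19, 8.19 and 8.21 with NU7441, against 8.27, 8.48 and 8.39 with DMSO, a difference of -0.18 (SE 0.074, adjusted p = 0.732). In both genes the groups did not overlap, and Mrps22 had an SD of 0.012 over the NU7441 arrays, against 0.11 over the DMSO arrays.

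At the decoding site, where codons are read, Mrps12 differed by -0.056 (SE 0.070). In the head and platform, Mrps7 differed by -0.0085 (SE 0.076), Mrps9 by -0.0038 (SE 0.079) and Mrps11 by -0.090 (SE 0.073). At the mRNA entry, Mrps5 differed by -0.031 (SE 0.099) and Mrps24 by -0.047 (SE 0.079), and Mrps2 differed by -0.12 (SE 0.097). All 7 were below 0, and the groups of each overlapped. Mrps34, also a human disease gene, differed by -0.090 (SE 0.096), and Mrps15, the brightest probe set of the subunit, by -0.040 (SE 0.065). Mrps18b, one of 3 related proteins of the bacterial S18 type, differed by -0.14 (SE 0.095), Mrps18a by -0.13 (SE 0.073) and Mrps14, a dim probe set, by -0.048 (SE 0.11).

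The 2 small subunit genes above 0 were Mrps36 and Mrps25. Mrps36 is named as a ribosomal protein but belongs to the 2-oxoglutarate dehydrogenase complex of the citric acid cycle. It was at 5.84, 6.13 and 5.56 in NU7441 1 to 3, against 5.78, 5.66 and 5.73 in DMSO 1 to 3, a difference of 0.12 (SE 0.14, adjusted p = 0.896). Its NU7441 values lay on both sides of the DMSO values, and its probe set was the dimmest of all members. Mrps25 was at 8.93, 8.81 and 8.88 with NU7441, against 8.68, 8.87 and 8.74 with DMSO, a difference of 0.11 (SE 0.077, adjusted p = 0.826), with overlapping groups. Where a member had 2 probe sets, the brighter was used, and in 4 of 9 such members the dimmer had the opposite sign: 0.22 for Mrpl10, 0.064 for Mrpl36, 0.12 for Mrps17 and 0.14 for Mrps5.

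Names and structures of the mitoribosome differ in places: Mrps30 and Mrps18a sit in the large subunit, and Dap3, Ptcd3, Aurkaip1, Chchd1 and Gadd45gip1 are mitoribosomal proteins under other names. Of these 5, Dap3, Ptcd3 and Gadd45gip1 had probe sets of their own. Gadd45gip1, of the large subunit, was at 7.97, 8.07 and 7.83 in NU7441 1 to 3, against 8.21, 8.34 and 8.10 in DMSO 1 to 3, a difference of -0.25 (SE 0.094, adjusted p = 0.711), without overlap. Dap3, a GTP-binding protein of the small subunit, differed by 0.0097 (SE 0.063) and Ptcd3, which binds RNA, by -0.040 (SE 0.11). Sorted by structure, with Mrps36 left out, 63 of 73 genes were lower, with medians of -0.083 for the large and -0.071 for the small subunit.

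By descent, the 28 large subunit genes with bacterial counterparts had 24 lower and a median of -0.077, and the 15 without had 11 lower and a median of -0.089. In the small subunit, 15 of 15 genes with bacterial counterparts were lower, with a median of -0.056, and 9 of 10 without, with a median of -0.087. Without DMSO 2, the large subunit had 18 of 28 lower with a median of -0.033 and 12 of 15 with a median of -0.060, and the small subunit 12 of 15 with a median of -0.035 and 7 of 10 with a median of -0.029. The order of the shares in the large subunit and of the medians in the small subunit turned without that array. Groups without overlap were found in 5 of 28, 7 of 15, 1 of 15 and 2 of 10 of these sets, all with NU7441 below. Over all genes that share was 6.64%, and the 1 of 15, or 6.67%, was near it. Mrps18a, Mrps30 and Mrps36 were in neither small subunit set. The difference between the kinds was not tested.

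The genes that work with the mitoribosome were described by their counts. Of 15 translation factors and related genes, which included Lrpprc and the membrane insertase Oxa1l, 13 were lower, with a median of -0.094. Without DMSO 2 again 13 were lower, with a median of -0.084. At an unadjusted p under 0.05 there were 2 of 15, both lower, Lrpprc and Gfm1, beside 3.30% of all genes lower. Lrpprc, which stabilises mitochondrial mRNAs, was at 9.40, 9.45 and 9.36 in NU7441 1 to 3, against 9.50, 9.65 and 9.63 in DMSO 1 to 3, a difference of -0.19 (SE 0.071, limma adjusted p = 0.715). Gfm1, the elongation factor that moves the ribosome along, differed by -0.20 (SE 0.082), and Tufm, which delivers the tRNAs, by 0.0083 (SE 0.066). Of 28 assembly factors 21 were lower, with a median of -0.035, but without DMSO 2 only 11, with a median of 0.021. The GTPase Mtg1 had the smallest p among them, at -0.21 (SE 0.084). Counted with them was Lyrm7, at -0.19 (SE 0.093), an assembly factor of the respiratory chain rather than of the mitoribosome.

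Of 21 mitochondrial aminoacyl-tRNA synthetases and amidotransferase subunits 15 were lower, with a median of -0.054, and without DMSO 2 only 11, with a median of -0.0046. Counted among them were Gars, at -0.21 (SE 0.22), and Kars, at -0.024 (SE 0.062), which also encode the cytosolic enzymes. Yars2, which charges the tyrosine tRNA, was at 8.30, 8.32 and 8.17 in NU7441 1 to 3, against 8.47, 8.85 and 8.48 in DMSO 1 to 3, a difference of -0.34 (SE 0.11, adjusted p = 0.698). Its groups did not overlap, and DMSO 2 was the highest array. Of 12 genes of mitochondrial DNA transcription and maintenance 11 were lower, with a median of -0.063, and 11 without DMSO 2, with a median of -0.034, among them the nuclease Mgme1 at -0.20 (SE 0.065) and Tfam, which packages mitochondrial DNA, at -0.19 (SE 0.071). Of 12 nuclear regulators of mitochondrial genes 9 were lower, with a median of -0.062 and, without DMSO 2, -0.033. The factors whose motifs were searched for differed by 0.012 (SE 0.069) for Nrf1, -0.12 (SE 0.066) for Gabpa and -0.043 (SE 0.063) for Yy1.

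The templates of the mitoribosome, the genes of mitochondrial DNA, had 10 measured members, of which 8 were lower, with a median of -0.017 and a range of -0.064 to 0.049. Without DMSO 2, 6 of 10 were lower, with a median of -0.0021. ND3 was at 13.38, 13.39 and 13.37 in NU7441 1 to 3, against 13.41, 13.46 and 13.47 in DMSO 1 to 3, a difference of -0.064 (SE 0.059). The highest values on the arrays were 13.94 to 13.96, and probe sets this bright can understate a difference. The 80 subunits of the respiratory chain and ATP synthase had 50 lower and 30 higher, with a median of -0.037 and, without DMSO 2, -0.011. The 67 cytosolic ribosomal proteins had 12 lower and 55 higher, with a median of 0.075 and, without DMSO 2, 0.11. In pair 1, 2 and 3 the median difference was -0.035, -0.11 and -0.078 for the mitoribosomal genes, and 0.10, 0.035 and 0.12 for the cytosolic ones. The 2 medians lay on opposite sides of 0 in every pair, which share the same 6 samples, but no test of this contrast was made and none of the genes passed singly.

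**Figure D4:**
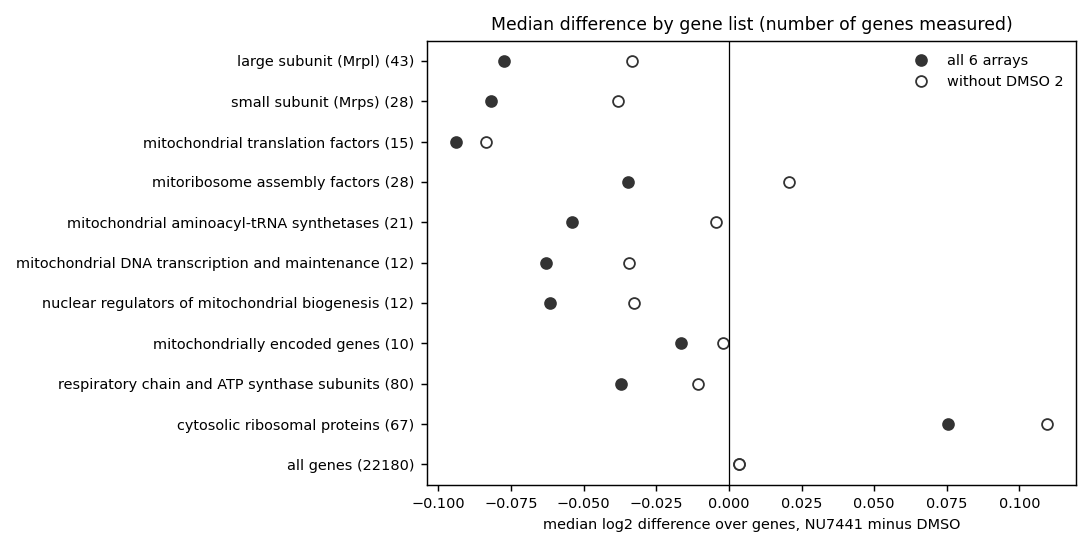
Median log2 difference over genes, NU7441 minus DMSO (x axis), for the mitoribosomal subunits and related gene lists, with the number of genes measured; filled points use all 6 arrays and open points leave out DMSO 2. Leaving it out moves the subunits to -0.033 and -0.038, the translation factors and related genes to -0.084 and the cytosolic ribosomal proteins to 0.11.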

How the data were processed

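Total RNA of 6 whole-cell samples was labelled with biotin and read on Affymetrix arrays. The table deposited by the authors holds log2 values per probe set, a scale read from their range. For background correction and normalization no method is stated per the labels. Among 41345 probe sets, 23521 had a single symbol in GEO's platform annotation, 1814 had several and 16010 were unnamed. Per gene the probe set with the highest mean was kept (22180 genes; 80 probe sets for 71 members, 9 of which had 2), with no filter on level. Symbols were checked against RefSeq by Entrez number, and 0 changed.

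A two-sided moderated test (limma 3.58.1, R 4.3.3) with a single group term set NU7441 against DMSO. P-values were adjusted by Benjamini-Hochberg across the 22180 genes, and 0.05 was the threshold. The number of arrays limits precision. The fit was tested on simulated data with 2-fold differences, larger than that of any member. That test cannot tell whether differences of the members' size would be called. Lists are described by counts and medians, with no test. Members, lists and motifs were chosen with earlier results of these data known. The named genes were those with the smallest p in each direction, the brightest and dimmest probe sets of each subunit, holders of extremes and members of functional regions; the other genes without overlap, Tufm, Nrf1 and Yy1 were named after their values were seen. Of each other list up to 3 genes with the smallest p could be named. The ATF4 and mitosis lists were also added afterwards. Over all genes, deviations from the group means correlated at 0.149, 0.169 and 0.339 between same-numbered samples, and at -0.246 to 0.094 between differently numbered ones. The numbers were therefore taken as pairs from the data, and a replicate block was an alternative. Among the members alone, same-numbered samples correlated at 0.123, -0.0079 and 0.219, and the others at -0.201 to 0.034. For pair 2 the members thus did not bear the pairing out. Figures used matplotlib 3.10.9 in Python 3.11.15.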

Additional observations from a re-analysis of the deposited data

How the results depend on the processing

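No alternative called a mitoribosomal gene. The count at an unadjusted p under 0.05 was 4, and 1 after quantile normalization, 2 with array weights and 0 to 7 with 1 array left out. Over all 22180 genes, in either direction, it was 1506, and 1426 after quantile normalization and 1562 with array weights. With 1 array left out it was 1174 to 1746. With the replicate block, which takes same-numbered samples as pairs, the members' count was again 4, beside 2078 of all genes. The smallest limma adjusted p among members was then 0.493. The block changed no call by itself. With an intensity trend and robust prior added to the block, 100 genes were called over all genes, 0 of them members. There 10 members had an unadjusted p under 0.05, all lower, beside 6.66% of all genes lower. With 1 array left out, the small subunit's median ran from -0.091 to -0.038 and large minus small from -0.010 to 0.0095. Large minus small was -0.012 with the subunits taken from published structures. The cause of these shifts was not tested. Leaving DMSO 2 out of the other gene lists and of the split by promoter motif was chosen after seeing the data.

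For 24 of 71 members the sign turned under at least 1 alternative, and none of these was called. Quantile normalization gave 0.032 for Mrpl10, 0.0050 for Mrpl52, 0.023 for Mrps7 and 0.021 for Mrps9. Averaging each gene's probe sets gave 0.11 for Mrpl10 and 0.052 for Mrps5, and array weights gave 0.010 for Mrpl27. With 1 array left out, the differences ran from -0.060 to 0.028 for Mrpl10, -0.19 to 0.0066 for Mrpl2, -0.029 to 0.077 for Mrpl24, -0.097 to 0.054 for Mrpl27, -0.037 to 0.066 for Mrpl46 and -0.081 to 0.0022 for Mrpl52. In the small subunit they ran from -0.11 to 0.061 for Mrps14, -0.10 to 0.018 for Mrps24, -0.025 to 0.26 for Mrps36, -0.13 to 0.046 for Mrps5, -0.063 to 0.040 for Mrps7 and -0.042 to 0.057 for Mrps9.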
